A study of Mus musculus with 16 samples.

Results

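A set of 9 genes of the phosphoinositide 3-kinase (PI3K) cassette upstream of PKB was followed in sorted mouse thymocytes with and without PKBα: the catalytic subunits Pik3ca, Pik3cb and Pik3cd, the regulatory subunits Pik3r1, Pik3r2, Pik3r3 and Pik3r5, the lipid phosphatase Inpp5d (SHIP1) and the kinase Pdpk1 (PDK1). They were taken by name, and every probe set annotated to 1 of these symbols alone was used, which gave 24 probe sets of 9 genes among 45101 probe sets on the array, or 18194 named genes. 7 of the genes encode PI3K subunits, Inpp5d is the only lipid phosphatase among them, and Pdpk1 is a protein kinase. The probe set with the highest mean log2 value over all arrays is called the lead probe set of its gene.

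The arrays hold DN3 cells, sorted as lineage-negative thymocytes by CD25 and CD44, and immature single positive CD8 cells (ISP8), sorted by CD3, CD4 and CD8. The mice were 4 PKBα-/- animals, which lack the gene in every cell from the germline on, and 4 wild-type littermates, all on a C57Bl/6 backcross, and each mouse gave 1 array per subset, so that ISP8 PKBα-/-, ISP8 wild-type, DN3 PKBα-/- and DN3 wild-type have 4 arrays each. The 4 littermate pairs were 5-week females, 3-week females, 3-week males and 2-week males, and values are listed in that order throughout, in units of normalized array intensity. Equal cell numbers were sorted within a pair, and neither bulk RNA nor arrays can tell fewer cells of a type from less RNA per cell.

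Class I PI3Ks phosphorylate a membrane lipid, phosphatidylinositol bisphosphate, to the trisphosphate PIP3 at the plasma membrane, to which PKB and PDK1 bind so that PDK1 can phosphorylate PKB. Regulatory subunits hold the catalytic subunits stable and bring them to activated receptors, and SHIP1 removes a phosphate from PIP3. In the thymus this pathway acts with the pre-TCR as DN3 cells pass β-selection and go on through the ISP8 stage to double positive cells.

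The labels were first set against the arrays. Akt1, which encodes PKBα, was at 4.87 to 6.81 in ISP8 PKBα-/- cells against 1628 to 2211 in ISP8 wild-type cells, and at 2.01 to 27.3 in DN3 PKBα-/- cells against 1198 to 2007 in DN3 wild-type cells (probe set 1416657_at). Cd8a was at 4251 to 6012 in ISP8 and at 98.5 to 292 in DN3 cells of both genotypes, and 6 of 6 DN3 stage genes were lower in ISP8. Of 4 ISP8 stage genes on the array, Cd8a among them, 3 were higher in ISP8 over both genotypes (limma, adjusted p under 0.05). Ccr9 of that list overlapped between the subsets, at 2348 to 5345 in ISP8 and 1186 to 8344 in DN3. Median values of the 16 arrays lay between 55.1 and 70.5. The array numbers in the labels run through the ISP8 samples first and the DN3 samples after them, so array order and subset cannot be told apart. The ratio of 3′ to 5′ actin probe sets, a sign of RNA quality, was 0.44 lower in ISP8 on the log2 scale. It was lower in 7 of 8 mice (two-sided exact sign-flip test, p = 0.0156), whereas that of Gapdh differed by 0.03. This test counted the 8 mice as independent, although they come from 4 littermate pairs.

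Of the 24 probe sets, 17 were above 20 on all 16 arrays and 7 on some of them, and all 24 passed the filter in at least 1 subset. The promoters of the 3 genes whose transcripts were lower in ISP8 over most of their probe sets are shown to give their sequence context, each from 250 bases before to 50 bases after an annotated start (RefSeq, GRCm38.p6, 5′ to 3′ on the gene's strand). Capitals mark the E-box letters CAGNTG on either strand, the kind of site that E proteins of early thymocytes bind.

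Pik3r5, chr11:68431875-68432174 (+ strand): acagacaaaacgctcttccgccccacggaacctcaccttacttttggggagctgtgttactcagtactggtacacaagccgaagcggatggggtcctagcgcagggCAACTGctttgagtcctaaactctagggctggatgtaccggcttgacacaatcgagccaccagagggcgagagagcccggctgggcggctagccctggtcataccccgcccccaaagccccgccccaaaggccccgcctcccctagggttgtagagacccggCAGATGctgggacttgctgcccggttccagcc
Pik3r1, chr13:101768168-101768467 (- strand): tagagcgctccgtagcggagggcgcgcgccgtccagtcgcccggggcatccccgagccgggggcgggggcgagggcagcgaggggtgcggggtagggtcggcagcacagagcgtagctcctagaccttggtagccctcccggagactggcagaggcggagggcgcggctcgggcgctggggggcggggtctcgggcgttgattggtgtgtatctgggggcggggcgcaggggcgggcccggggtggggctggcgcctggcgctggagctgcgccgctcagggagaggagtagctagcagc
Pik3r1, chr13:101692581-101692880 (- strand): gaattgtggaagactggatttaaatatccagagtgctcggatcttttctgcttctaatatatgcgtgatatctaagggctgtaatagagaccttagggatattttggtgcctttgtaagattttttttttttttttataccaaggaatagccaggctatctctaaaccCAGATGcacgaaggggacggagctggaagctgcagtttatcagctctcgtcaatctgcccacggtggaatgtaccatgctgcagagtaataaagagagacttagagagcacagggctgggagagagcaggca
Pik3cd, chr4:149698659-149698958 (- strand): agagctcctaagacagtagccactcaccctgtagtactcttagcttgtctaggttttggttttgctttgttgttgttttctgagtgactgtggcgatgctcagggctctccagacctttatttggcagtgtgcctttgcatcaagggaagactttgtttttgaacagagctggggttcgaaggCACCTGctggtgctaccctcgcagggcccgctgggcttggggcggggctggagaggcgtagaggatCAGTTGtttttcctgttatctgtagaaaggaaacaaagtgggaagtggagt
Pik3cd, chr4:149676040-149676339 (- strand): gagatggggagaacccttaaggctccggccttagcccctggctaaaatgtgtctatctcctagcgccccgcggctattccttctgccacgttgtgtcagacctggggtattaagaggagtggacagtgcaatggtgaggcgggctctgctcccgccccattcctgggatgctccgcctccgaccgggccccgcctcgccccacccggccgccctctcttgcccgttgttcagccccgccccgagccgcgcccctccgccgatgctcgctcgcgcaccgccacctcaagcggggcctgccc
Pik3cd, chr4:149663267-149663566 (- strand): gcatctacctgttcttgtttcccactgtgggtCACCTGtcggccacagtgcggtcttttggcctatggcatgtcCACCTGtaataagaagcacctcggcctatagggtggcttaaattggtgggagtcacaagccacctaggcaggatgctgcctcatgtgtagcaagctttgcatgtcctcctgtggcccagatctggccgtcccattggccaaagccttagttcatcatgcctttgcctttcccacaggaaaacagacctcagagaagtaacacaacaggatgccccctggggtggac

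All 9 genes matched, with 15 promoter windows. E-box letters were in 6 of the 15 windows and in 51.4% of 32817 promoters of this length. Neither TGTGGT, letters bound by RUNX factors, nor GTAAACA, letters bound by FOXO factors, was in any of the 15, on either strand, while 16.8% and 3.65% of all promoters hold them. A match is a description of letters and not of binding. The Pik3r5 window and the Pik3cd windows listed first and last hold 2 E-box matches each, the second Pik3r1 window holds 1, and the remaining 2 windows shown hold none. Their G and C content ranged from 43.7% in the second Pik3r1 window, the lowest of all 15, to 75.7% in the first.

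**Figure D1:**
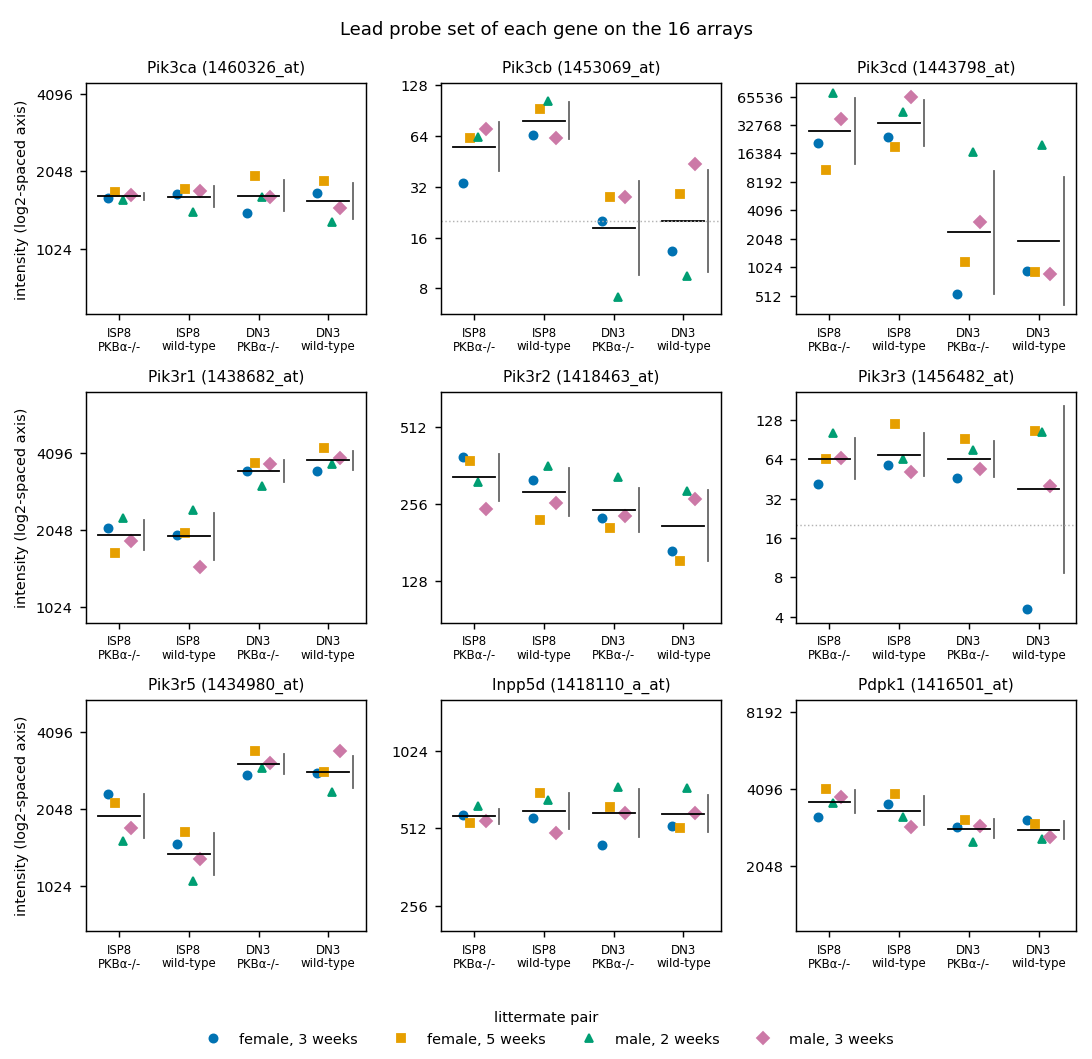
Intensity (log2-spaced axis, range set per panel) of the lead probe set of each of the 9 genes on 16 arrays, with 1 symbol per littermate pair, the mean of log2 values as a black line and 1 SD of log2 values as a grey bar; the dotted line marks 20 where it falls in the range. Pik3r1 and Pik3r5 show every ISP8 array below every DN3 array, and in no panel do PKBα-/- and wild-type arrays of a subset separate.

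Between ISP8 and DN3 cells, several of the 9 genes differed, and they did so in both directions. Over both genotypes, 13 of 24 probe sets passed an adjusted p under 0.05 in limma's test with the mouse as a block (54.2%), 5 higher and 8 lower in ISP8, where 37.4% of all 36835 probe sets tested passed, 15.6% higher and 21.9% lower. By lead probe sets 6 of 9 genes passed, 4 higher and 2 lower in ISP8, and the share among all lead probe sets was not taken. Pik3cd counts there as higher, although 4 of its other probe sets passed as lower. Among PKBα-/- mice 10 of 24 probe sets passed, 3 higher and 7 lower, against 28.1% of all (11.9% higher, 16.2% lower). Among wild-type mice 9 of 24 passed, 3 higher and 6 lower, against 28.9% of all (11.6% higher, 17.3% lower). No test was made of the difference between these shares and those of all probe sets. Arrays of ISP8 and DN3 did not overlap for 4 of 24 probe sets, all lower in ISP8, which is near the 14.7% of all probe sets without overlap (5.82% higher, 8.85% lower). The test over both genotypes counts the 8 mice as independent, although they come from 4 littermate pairs. A subset difference shared by littermates was not modelled, so those p-values may be too small. Few arrays limit the precision throughout.

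**Figure D2:**
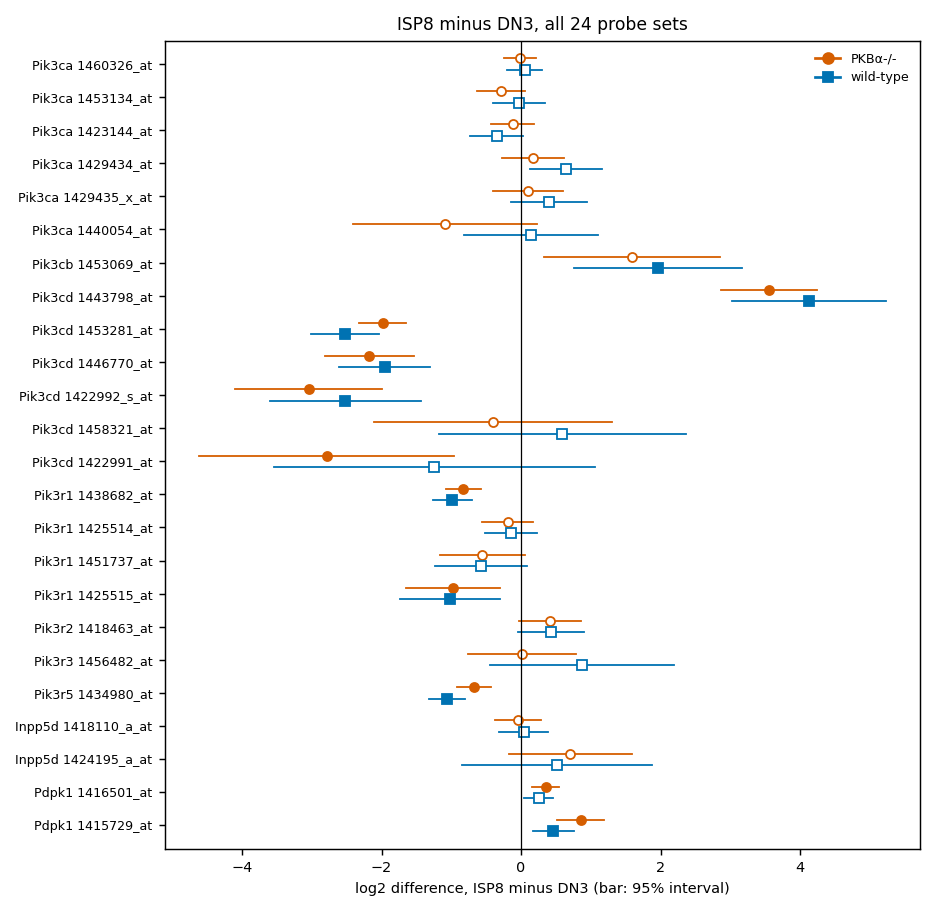
Log2 difference ISP8 minus DN3 of all 24 probe sets with 95% intervals from limma, in PKBα-/- (circles) and wild-type mice (squares), filled where the adjusted p was under 0.05. Both genotypes give the same side for every probe set that passed in either, with 1 Pik3cd probe set far to the right of the other 5.

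The catalytic subunits showed 3 patterns. Pik3ca encodes p110α, the broadly expressed catalytic subunit. Its lead probe set 1460326_at read 1696, 1618, 1661 and 1584 in ISP8 PKBα-/- cells and 1743, 1668, 1713 and 1418 in ISP8 wild-type cells. Its DN3 values were 1969, 1415, 1629.5 and 1628 in PKBα-/- cells and 1885, 1691, 1481 and 1300.2 in wild-type cells. All 4 groups overlap. The difference between ISP8 and DN3 was 0.02 (SE 0.07, 95% interval -0.13 to 0.17, adjusted p = 0.854). None of the 6 Pik3ca probe sets passed. The closest was 1429434_at, at 184 to 297 in ISP8 against 116 to 226 in DN3, with a difference of 0.41 (adjusted p = 0.0504), which passed without the 5-week pair (0.53, adjusted p = 0.036).

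Pik3cb encodes p110β, a catalytic subunit that also answers to G protein-coupled receptors. Its 1 probe set was dim, at 61.8, 33.8, 70.1 and 63.3 in ISP8 PKBα-/- cells and 92.0, 64.8, 61.8 and 102.7 in ISP8 wild-type cells. In DN3 cells the values were 27.7, 20.2, 27.8 and 7.15 in PKBα-/- cells and 29.1, 13.3, 43.7 and 9.48 in wild-type cells, with 3 of 8 DN3 arrays at or under 20. Each of 8 mice was higher in ISP8, although the 2 subsets overlap between mice. The difference was 1.78 on the log2 scale, or 3.44-fold (SE 0.41, adjusted p = 0.0024). It was 1.60 among PKBα-/- mice (adjusted p = 0.0581) and 1.97 among wild-type mice (adjusted p = 0.0166), where the call was lost without the 3-week female pair (adjusted p = 0.0504) or the 2-week male pair (adjusted p = 0.0936). The fold rests on small intensities, and with 20 added to each value the difference was 1.09 over both genotypes (adjusted p = 6.52e-04) and 0.93 among PKBα-/- mice, where it then passed (adjusted p = 0.0385). Quantile normalization also gave that genotype the call (1.66, adjusted p = 0.0464).

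Pik3cd encodes p110δ, the catalytic subunit enriched in leukocytes, and its 6 probe sets disagreed. Probe set 1453281_at was at 544, 404, 299 and 316 in ISP8 PKBα-/- cells and at 394.5, 222, 137 and 258 in ISP8 wild-type cells. In DN3 it was at 1948, 1131, 1374 and 1687 in PKBα-/- cells and at 1616, 1004, 1641 and 1258 in wild-type cells. Every ISP8 array lay below every DN3 array. The difference was -2.25 (SE 0.15, adjusted p = 8.88e-09), or 4.76-fold lower in ISP8. It was -1.99 among PKBα-/- mice and -2.52 among wild-type mice.

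Another 3 Pik3cd probe sets ran the same way. 1446770_at was at 36.9 to 109.9 in ISP8 against 152 to 577 in DN3 (-2.07, adjusted p = 2.24e-06), without overlap. 1422992_s_at was at 5.52 to 87.7 in ISP8 against 75.3 to 232 in DN3 (-2.78, adjusted p = 2.16e-05), lower in 8 of 8 mice. 1422991_at was dim, at 3.38 to 29.5 in ISP8 against 7.41 to 60.4 in DN3 (-2.01, adjusted p = 0.0149), lower in 6 of 8 mice, and lost its call without the 5-week pair (adjusted p = 0.0951). 1458321_at stayed between 5.45 and 30.02 on all arrays and did not pass (0.10, adjusted p = 0.905).

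The lead probe set of Pik3cd, 1443798_at, went the other way. It averaged 36810 in ISP8, against 322 for 1453281_at, on arrays whose highest values were 49279 to 80254. 1443798_at read 10831, 21357, 37877 and 71116 in ISP8 PKBα-/- cells and 19154, 24230.2, 64482 and 45436 in ISP8 wild-type cells. The DN3 arrays read 1159.5, 535, 3081 and 17057 in PKBα-/- cells and 899.6, 931, 859 and 20067 in wild-type cells. The 2-week male pair thus stood far above the other DN3 arrays in both genotypes, and overlaps the lowest ISP8 arrays. The difference was 3.84 (SE 0.40, adjusted p = 9.7e-07), higher in ISP8 in 8 of 8 mice. Without the 2-week pair it was 4.58. Across the 16 arrays of 8 mice, its Pearson correlation with the other 5 probe sets of the gene was -0.783 to -0.155, whereas 1453281_at, 1446770_at and 1422992_s_at correlated at 0.762 to 0.855 with each other.

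The gene whose pattern was most like that of 1443798_at was Armc8 (r = 0.981, probe set 1434950_a_at), and 58 of 9636 genes compared had a correlation above 0.9 with it. The 4 other probe sets of Armc8 correlated with it at -0.694 to 0.172, and their differences between ISP8 and DN3 were -0.81, 0.13, 0.11 and 0.19, against 4.02 for 1434950_a_at. The labels give no reason for the high DN3 values of the 2-week pair, and their cause was not tested. What 1443798_at measures was not tested, and the direction for Pik3cd depends on it: the mean of the 6 probe sets gave -0.86 (adjusted p = 5.48e-04) and the mean of the 5 others, an alternative added once the data had been seen, gave -1.80 (adjusted p = 1.85e-05).

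**Figure D3:**
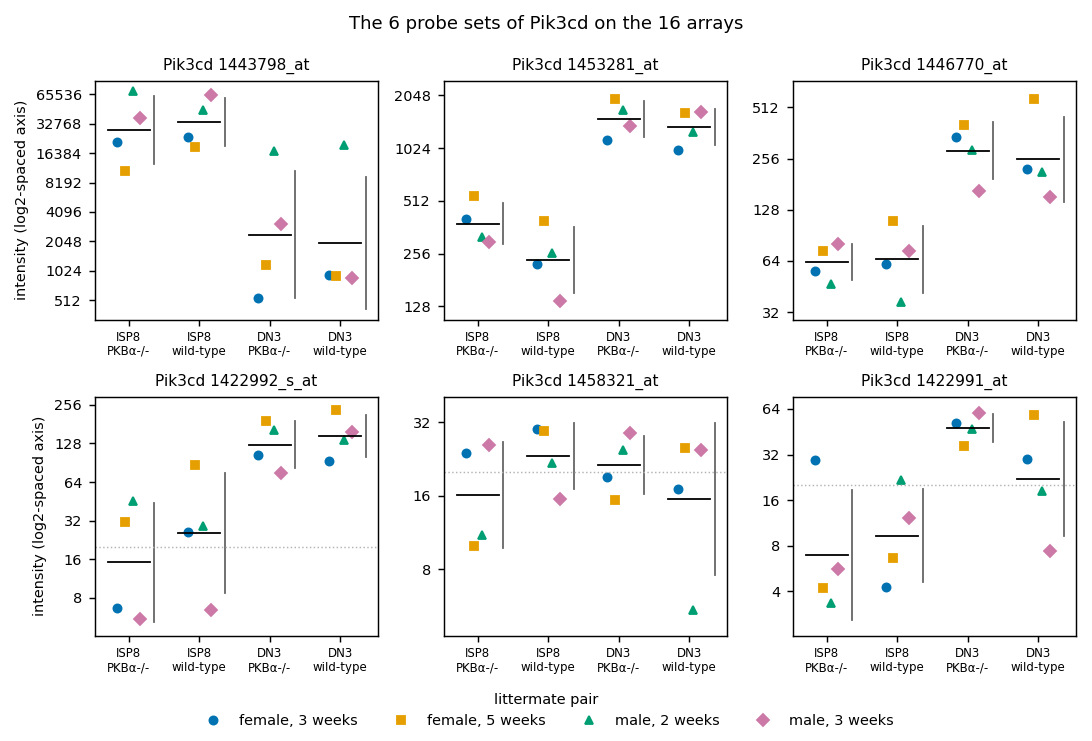
Intensity (log2-spaced axis, range set per panel) of the 6 Pik3cd probe sets on 16 arrays, with symbols per littermate pair, mean of log2 values as a black line, 1 SD as a grey bar and 20 as a dotted line. 1443798_at is higher in ISP8 and high in DN3 of the 2-week pair alone, while 1453281_at, 1446770_at and 1422992_s_at are lower in ISP8.

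Among the regulatory subunits, Pik3r1 and Pik3r5 were lower in ISP8. Pik3r1 encodes p85α and its shorter forms, the main partners of the catalytic subunits in lymphocytes. Its lead probe set 1438682_at read 1659, 2075.5, 1844 and 2282.5 in ISP8 PKBα-/- cells and 1983.5, 1946, 1469 and 2453 in ISP8 wild-type cells. DN3 values were 3730.4, 3476, 3685 and 3028 in PKBα-/- cells and 4261, 3477, 3898 and 3701 in wild-type cells. The 8 ISP8 values all lay below the 8 DN3 values. The difference was -0.91 (SE 0.09, adjusted p = 1.01e-06), or 1.88-fold lower, with -0.83 among PKBα-/- mice and -0.99 among wild-type mice.

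The other Pik3r1 probe sets read the same direction with less certainty. 1425515_at was at 35.6 to 102.9 in ISP8 against 97.4 to 160.0 in DN3 (-0.996, adjusted p = 0.00302), lower in 8 of 8 mice. Its call among PKBα-/- mice was lost without the 3-week male, the 2-week male or the 5-week pair (adjusted p up to 0.118), and that among wild-type mice without the 3-week female, the 3-week male or the 2-week male pair (adjusted p up to 0.152). 1451737_at gave -0.57 (adjusted p = 0.0429), a call lost without the 3-week female, the 3-week male or the 2-week male pair (adjusted p = 0.12 to 0.188). 1425514_at, at 316 to 465 in ISP8 against 342 to 518 in DN3, gave -0.17 (95% interval -0.42 to 0.08, adjusted p = 0.279).

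Pik3r5 encodes p101, a regulatory subunit that links p110γ to G protein-coupled receptors. Its 1 probe set, 1434980_at, read 2164, 2348, 1719 and 1537 in ISP8 PKBα-/- cells and 1658, 1496, 1309 and 1073 in ISP8 wild-type cells. For DN3 the arrays gave 3445, 2777, 3093.5 and 2959 in PKBα-/- cells and 2849.6, 2833, 3431 and 2389 in wild-type cells. All ISP8 arrays were below all DN3 arrays. The difference was -0.87 (SE 0.09, adjusted p = 6.95e-07), or 1.83-fold lower, with -0.68 among PKBα-/- mice (adjusted p = 4.4e-04) and -1.06 among wild-type mice (adjusted p = 2.18e-05). In order of mean level, DN3 PKBα-/- cells were at 3069 ± 282.5 and DN3 wild-type cells at 2875.5 ± 427 (SD, n = 4 each), which differ by less than their spread, and ISP8 PKBα-/- cells at 1942 ± 378 stood above ISP8 wild-type cells at 1384 ± 252 with overlapping values. Pik3cg, named here as the gene of its partner p110γ, gave -0.15 (adjusted p = 0.127).

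Pik3r2 encodes p85β. It read 377, 389.8, 244 and 311 in ISP8 PKBα-/- cells and 221, 318, 258 and 361 in ISP8 wild-type cells. On the DN3 arrays it was at 206.5, 226, 230.0 and 325 in PKBα-/- cells and 153, 168, 267 and 287 in wild-type cells. The groups overlap widely. The difference of 0.43 (SE 0.15, adjusted p = 0.0393), higher in ISP8 in 6 of 8 mice, was lost without the 3-week female pair (0.28, adjusted p = 0.247) or the 5-week pair (adjusted p = 0.178) and without the block (adjusted p = 0.0603), and it passed in neither genotype alone. Quantile normalization gave larger values, 0.67 over both genotypes (adjusted p = 0.00325), 0.63 in PKBα-/- mice (adjusted p = 0.0413) and 0.71 in wild-type mice (adjusted p = 0.0314), all past the threshold. Pik3r3, which encodes p55γ, was dim at 41.2 to 119 in ISP8 against 4.58 to 105.7 in DN3 and did not pass (0.44, 95% interval -0.40 to 1.28, adjusted p = 0.418), with 1 wild-type DN3 array of the 3-week females, at 4.58, below all the rest.

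Inpp5d encodes SHIP1, the phosphatase of blood cells that turns PIP3 over. Its lead probe set 1418110_a_at read 540.2, 580.3, 546 and 627 in ISP8 PKBα-/- cells and 705, 565, 489.5 and 660.5 in ISP8 wild-type cells. DN3 cells gave 622, 441, 590.4 and 747 in PKBα-/- cells and 513, 523, 589 and 739 in wild-type cells. No order among the 4 groups exceeds their spread. The difference between ISP8 and DN3 was -0.004 (SE 0.11, 95% interval -0.24 to 0.23, adjusted p = 0.983). The second probe set, 1424195_a_at, gave 0.61 (adjusted p = 0.308), and 1.15 (adjusted p = 0.0478) without the 5-week pair.

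Pdpk1 encodes PDK1, which phosphorylates PKB and related kinases. Its lead probe set 1416501_at read 4095, 3196, 3825 and 3629.5 in ISP8 PKBα-/- cells and 3916.5, 3603, 2910.3 and 3196 in ISP8 wild-type cells. In DN3 the same probe set was at 3111, 2920.2, 2944 and 2548 in PKBα-/- cells and 2994, 3098, 2661 and 2632 in wild-type cells. Each of 8 mice was higher in ISP8, by 0.13 to 0.51 on the log2 scale, although the subsets overlap between mice. The difference was 0.30 (SE 0.06, adjusted p = 8.7e-04), or 1.23-fold, with 0.35 among PKBα-/- mice (adjusted p = 0.00866, and 0.0541 without the 2-week pair) and 0.25 among wild-type mice (adjusted p = 0.0686).

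The second Pdpk1 probe set, 1415729_at, gave the same direction. It was at 1068 to 1737 in ISP8 PKBα-/- cells and 963 to 1288.5 in ISP8 wild-type cells, against 616 to 1013 in DN3 PKBα-/- cells and 618 to 991 in DN3 wild-type cells. The difference was 0.66 (SE 0.11, adjusted p = 1.13e-04), higher in 8 of 8 mice. It passed in both genotypes, and in wild-type mice the call was lost without the 3-week female pair (adjusted p = 0.0934) or the 3-week male pair (adjusted p = 0.0518), or without the block (adjusted p = 0.0599).

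Markers of other cells also moved between the subsets. The summed level of 4 B cell genes on the array was 270.5 to 535 in ISP8 against 1093 to 1314 in DN3, carried by Cd79b, while Cd79a was at 1.94 to 47.6 on all arrays, and 1 of the 4 genes passed as higher and 1 as lower in ISP8. That of 3 NK cell genes was 184 to 636 in ISP8 against 1390.5 to 1910 in DN3, carried by Nkg7, with Ncr1 at 3.25 to 60.1 and Klrd1 at 56.1 to 319.5 in ISP8 against 2.28 to 37.9 in DN3. All 4 γδ T cell genes were lower in ISP8 and summed to 303 to 731 in ISP8 against 1342 to 5421 in DN3, and the 4 mature T cell genes to 746 to 1444 against 6100 to 7671, of which Il7r made up most and was the only one of the 4 to pass. Of 5 thymic epithelial genes the sum was 149.5 to 300 in ISP8 against 413 to 1065 in DN3, carried by Epcam at 33.3 to 132 in ISP8 against 332 to 952 in DN3, while 3 of the 5 read higher in ISP8 and 1 of them, Psmb11, passed. The summed level of 6 dendritic cell and macrophage genes was 476 to 1345 in ISP8 against 683 to 1411 in DN3, with Cd74 and H2-Aa higher and Lyz2 and Csf1r lower in ISP8. The part of these cells, of the different sorting markers and of the actin ratio in the differences above was not tested.

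Loss of PKBα changed none of these genes past the threshold. In ISP8, 0 of 23 probe sets tested passed (0.0147% of all 34016 passed) and in DN3 0 of 24 (0.0383% of all 33962), by limma's test with the littermate pair as a block. At an unadjusted p under 0.05 there were 3 of 23 in ISP8 (6.08% of all probe sets) and 1 of 24 in DN3 (4.83% of all). The methods' t-test, with its rule of 1.5-fold in 3 of 4 pairs, was applied here without detection calls. It selected none in either subset, although the study listed Pik3cd 1453281_at in ISP8. The study's own selection was thus not reproduced, while the mean fold of that probe set was close to the one the study printed. Averaged over both subsets 0 of 24 passed (0.0353% of all), and 0 of 24 differed in their genotype effect between subsets (0% of 36835). No probe set separated PKBα-/- from wild-type arrays without overlap in either subset, against 2.91% of all in ISP8 and 1.74% in DN3. Lead probe sets bounded the effects to different degrees. In ISP8 the 95% interval was -0.20 to 0.22 for Pik3ca, -0.22 to 0.25 for Pik3r1, -0.37 to 0.24 for Inpp5d and -0.09 to 0.32 for Pdpk1, but -1.27 to 0.26 for the dim Pik3cb.

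**Figure D4:**
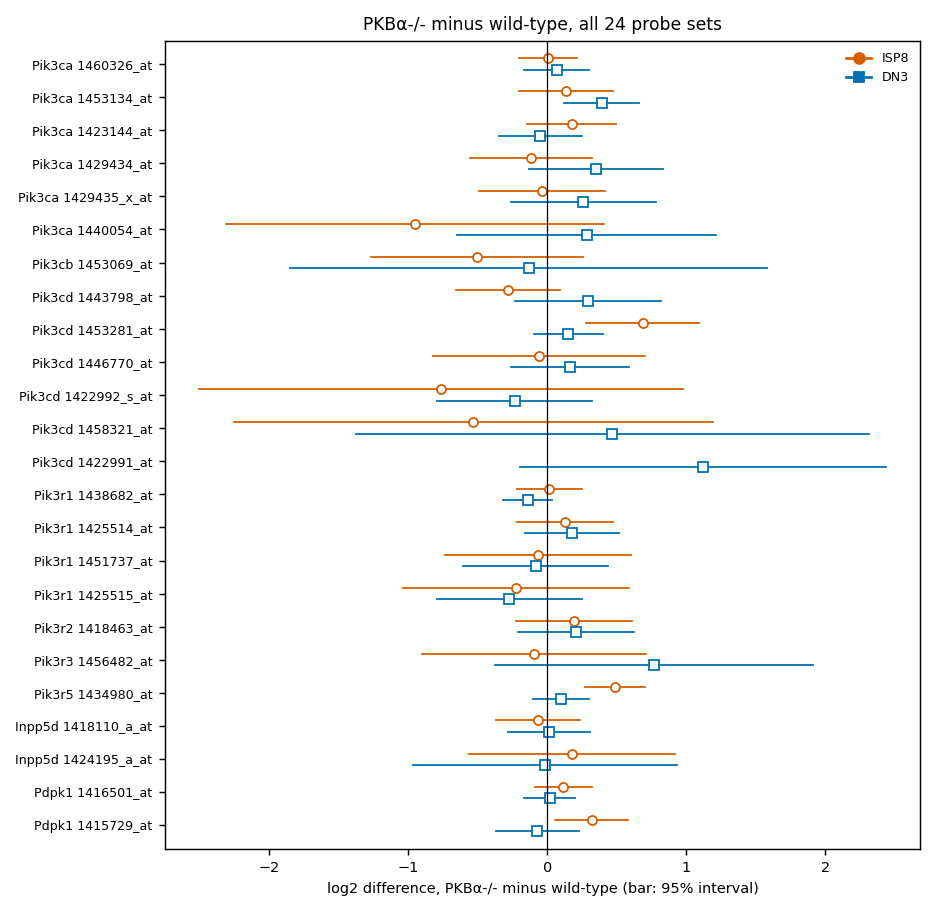
Log2 difference PKBα-/- minus wild-type of the 24 probe sets with 95% intervals from limma, in ISP8 (circles) and DN3 (squares); open symbols mark an adjusted p of 0.05 or more, and 1 dim Pik3cd probe set was not tested in ISP8. No symbol is filled, and Pik3r5 and Pik3cd 1453281_at lie right of 0 in ISP8.

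Pik3r5 in ISP8 had the smallest adjusted p of the 24, and it did not pass. The PKBα-/- mouse was higher in 4 of 4 pairs, by 0.38 to 0.65 on the log2 scale in the values given above, and the mean difference was 0.49 (SE 0.10, 95% interval 0.27 to 0.70 before adjustment, adjusted p = 0.308). In DN3 the difference was 0.10 (95% interval -0.10 to 0.30, adjusted p = 0.983), higher in 2 of 4 pairs. The difference between those effects, 0.39, did not pass (adjusted p = 0.961), although it had the same sign in 4 of 4 pairs. The 6 DN3 stage genes summed to 15981 to 19656 in ISP8 PKBα-/- cells and 13071 to 16643 in ISP8 wild-type cells, with 6 of 6 reading higher on average and none passing, and their part in the Pik3r5 difference was not tested.

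Pik3cd 1453281_at was higher in the PKBα-/- mouse of 4 of 4 pairs in ISP8, by 0.69 (SE 0.19, adjusted p = 0.654), and 0.42 higher averaged over both subsets (adjusted p = 0.364). By the methods' t-test its p in ISP8 was 0.0362 before adjustment, with a mean fold of 1.61 and 2 of 4 pairs past 1.5-fold. The study listed this probe set as up-regulated by about this mean fold from these same samples, so its direction is not independent evidence. The rule as applied here did not reproduce that call. The other 4 Pik3cd probe sets tested in ISP8 read lower, at -0.76 to -0.06. Pdpk1 1415729_at was higher in 4 of 4 pairs in ISP8, by 0.32 (adjusted p = 0.803), while the lead probe set gave 0.12 (adjusted p = 0.862). In DN3 the smallest unadjusted p was that of Pik3ca 1453134_at (0.00711), 0.39 higher in 4 of 4 pairs (adjusted p = 0.972), where the lead Pik3ca probe set gave 0.07. The actin 3′ to 5′ ratio was also higher in the PKBα-/- mouse of 4 of 4 pairs in ISP8, by 0.24 on the log2 scale (two-sided exact sign-flip test, p = 0.125, the smallest 4 pairs allow), and its part in these differences was not tested. The summed neutrophil genes were 78.7 to 161 in ISP8 PKBα-/- cells against 142.5 to 3956 in ISP8 wild-type cells, and their part was not tested either. In DN3, Cd74 was at 83.1 to 122.9 in PKBα-/- against 37.5 to 77.1 in wild-type cells, and H2-Aa at 144 to 381 against 51.9 to 123.9. Of the 6 dendritic cell and macrophage genes 3 read higher and 3 lower. Krt8 was at 6.42 to 17.55 against 29.9 to 69.7, with 3 of 4 thymic epithelial genes tested lower and 1 higher. None of these passed, and their part was not tested.

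Other genes around PI3K were read from a list of 40, of which 38 were on the array. Over both genotypes 19 of 38 passed between ISP8 and DN3, 3 higher and 16 lower in ISP8, where 37.4% of all probe sets passed (15.6% higher, 21.9% lower), and the median difference was -0.30 against -0.05 over all probe sets tested. The 38 genes were read by their lead probe sets only, an unlike set to all probe sets, and the difference between these shares was not tested. The 3 higher ones were Synj1 (0.48), a phosphoinositide phosphatase of vesicle recycling, Inpp5b (0.29), another inositol polyphosphate 5-phosphatase, and the adaptor Dok2 (0.35). The lower ones with the smallest p were Pik3ip1, Tec, Cblb and Sgk3. Pik3ip1 encodes a membrane protein that inhibits PI3K, and was at 1058 to 1277 in ISP8 PKBα-/- cells and 890.5 to 1227 in ISP8 wild-type cells, against 4481 to 7974 in DN3 PKBα-/- cells and 4851 to 8421 in DN3 wild-type cells. Its difference was -2.41 (SE 0.08, adjusted p = 2.91e-12).

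Tec, a kinase that binds PIP3, gave -2.47 (adjusted p = 1.6e-11), Cblb, a ubiquitin ligase that restrains PI3K in T cells, gave -1.98 (adjusted p = 9.84e-11), and Sgk3, a kinase related to PKB, gave -1.39 (adjusted p = 3.68e-10). Each was lower in ISP8 in 8 of 8 mice. By group, 4 of 10 adaptors and inhibitors fell and 1 rose, 4 of 10 effectors and PKB phosphatases fell and none rose, and 6 of 12 other phosphoinositide phosphatases fell and 2 rose. Among the class II and III kinases 2 of 4 fell, and neither of the 2 other class I genes passed. Over all probe sets 37.4% passed, 15.6% higher and 21.9% lower, and these small groups were not tested against those shares. Akt1, counted among the effectors, was at only 2.01 to 27.3 in PKBα-/- cells. Within genotypes the list gave 1 higher and 15 lower of 37 tested in PKBα-/- mice and 2 higher and 15 lower of 37 in wild-type mice, against the shares of all probe sets given above for each genotype. Between genotypes Akt1 itself was the only one of these genes to pass, lower in PKBα-/- cells in both subsets.

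**Figure D5:**
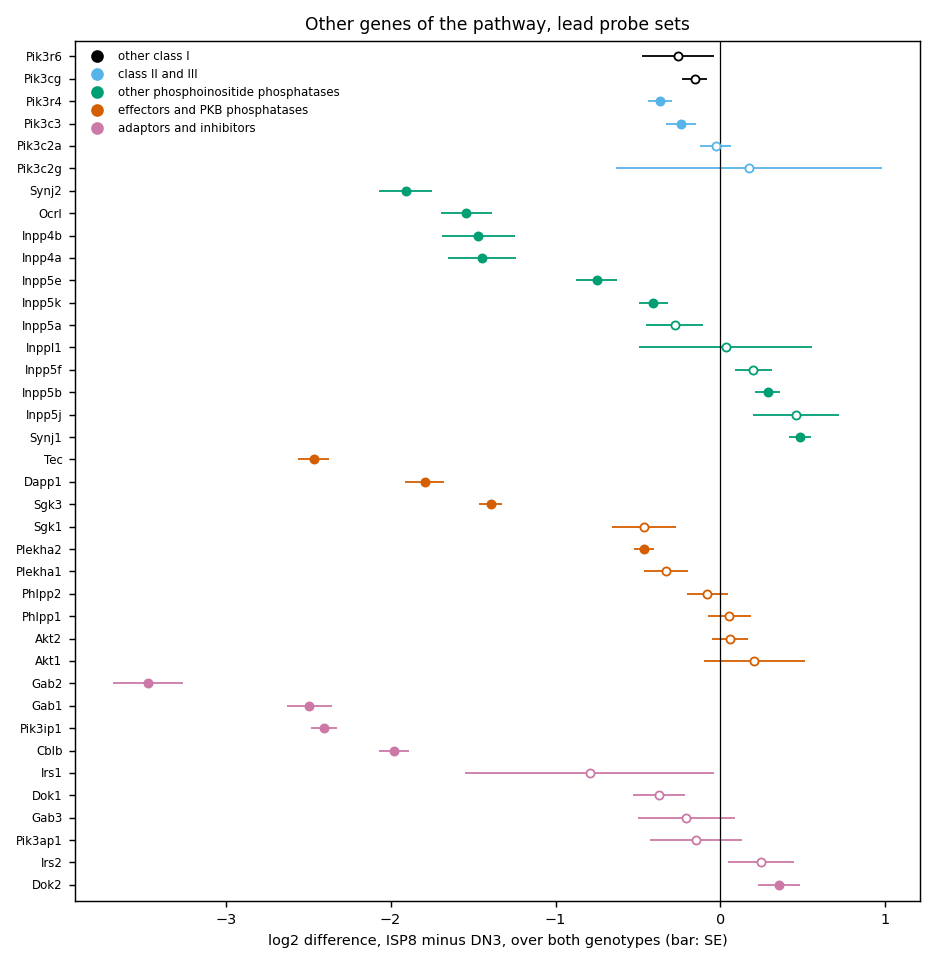
Log2 difference ISP8 minus DN3 over both genotypes of the lead probe sets of 38 other pathway genes with the SE as bar, grouped by role and filled where the adjusted p was under 0.05. Pik3ip1, Tec, Cblb and Sgk3 lie at -2.47 to -1.39, and the 3 filled symbols right of 0 are Synj1, Dok2 and Inpp5b.

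For the 7 genes whose lead probe set was above 20 on all 16 arrays, the gene with the most similar pattern among 9636 was named from log2 values. Arrays of a mouse and of a subset are not independent, so the correlations are descriptions. Pik3r1 was most like Ago1 (r = 0.96), with 313 genes above 0.9, and Pik3r5 most like Niban1 (r = 0.956), with 133 genes above 0.9. Between ISP8 and DN3, Ago1 differed by -0.90 and Niban1 by -1.86. Pdpk1 was most like Pold3 (r = 0.903), which was 0.72 higher in ISP8. Pik3r2 was most like Yif1b (r = 0.88), Inpp5d most like Lss (r = 0.905), and Pik3ca most like Arpc2 (r = 0.81), with no gene above 0.9 for Pik3ca or Pik3r2. The other probe sets of these genes were less like: 0.143 and -0.239 for Lss, 0.347 for Arpc2, 0.643 for Niban1, and 0.631 and 0.644 for Pold3, while Ago1 and Yif1b had 1 probe set each.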

How the data were processed

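Values were the intensities that the authors had deposited for 16 Affymetrix mouse genome 430 2.0 arrays, made from RNA amplified with a 2-cycle kit and estimated by GC-RMA in Genedata Refiner, which corrects background by probe sequence, on a linear scale. No array column was left unused. Log2 of these values, without a constant, was fitted with limma 3.58.1 (R 4.3.3, trended eBayes), with the littermate pair or the mouse as a block, as in the paired methods of the study. For genotype effects within a subset, probe sets above 20 in at least 1 member of a pair in at least 3 of 4 pairs were tested. For ISP8 against DN3 within a genotype, the filter was above 20 in at least 1 subset of a mouse in at least 3 of 4 mice. Tests that used all 16 arrays took probe sets that passed the pair filter in either subset. The Benjamini-Hochberg adjustment ran across every probe set tested, with 0.05 as threshold. The fit was tested on simulated data with independent noise and no pair or mouse effects, which cannot show how the block performs.

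Pairs come from the labels. Same-pair deviations correlated at 0.0706 to 0.178 in ISP8 and 0.316 to 0.384 in DN3. Gene names came from the platform annotation, in which 932 of 45101 probe sets carry several symbols and 9211 none. 1 probe set shared by Pik3r2 and another gene was left out. All 9 genes were named, Akt1 as a check, of the other pathway genes up to 4 per direction with the smallest p, and for each gene the most correlated one. The members and lists were chosen with earlier results of these data known. Alternatives were the filter, a constant of 20 added, quantile normalization, robust moderation, leaving out each pair, no block, the methods' paired t-test and the mean of all probe sets. Detection calls were not used here. Plots were drawn with matplotlib 3.10.9 in Python 3.11.15. In the blocked fits, p-values measure how much differences within a pair or mouse vary between pairs or mice, moderated across probe sets. For ISP8 against DN3 over both genotypes the block was the mouse, and the littermate pair was not in the fit. Each group had 4 mice.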

Additional observations from a re-analysis of the deposited data

Results flagged for a closer look

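Among 96 groups of 4 arrays (24 probe sets in 4 groups), 5 were flagged by Dixon's gap rule on linear intensities, or 5.21%. In these 5, the gap from 1 value to its nearest neighbour took up 0.834 to 0.996 of the group's range. For normally distributed values the rule flags about 1 in 20 groups by chance, and linear intensities need not be so distributed. The DN3 arrays of the 2-week male pair stood apart for Pik3cd 1443798_at in both genotypes, at 17057 in the PKBα-/- mouse (next 3081) and at 20067 in the wild-type mouse (next 931). For Pik3cd 1446770_at the wild-type DN3 array of the 5-week females was at 577 (next 222). For Pik3cd 1422991_at the PKBα-/- ISP8 array of the 3-week females was at 29.5 (next 5.65). For Pik3r1 1451737_at the PKBα-/- DN3 array of the 3-week females was at 159 (next 115). No genotype effect on these probe sets differed between the subsets past the threshold.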

How the results depend on the processing

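The counts of probe sets that passed stayed at 0 under every alternative for the genotype effects in each subset, averaged and for the difference between subsets. In the main fit 23 of the 24 were tested in ISP8, and a higher filter tested fewer. The methods' t-test after Benjamini-Hochberg called no probe set of the whole array in either subset, so its 0 says nothing particular about these genes. Between ISP8 and DN3 the count over both genotypes was 13 and ranged from 11 to 14, that in PKBα-/- mice was 10 and ranged from 7 to 11, and that in wild-type mice was 9 and ranged from 6 to 10. Of 729 alternative values for single genes, 708 stayed on their side of the threshold, of which 656 kept their sign and 52 changed it with no call in either setting (adjusted p of 0.28 or more, in 8 of the genes). Another 7 lost the call, 5 gained it and 9 reversed a call. Those 9 reversed calls are all Pik3cd between ISP8 and DN3. The mean of its 6 probe sets gave -1.14 (adjusted p = 0.00389) in PKBα-/- mice, -0.59 (adjusted p = 0.0772) in wild-type mice and -0.86 over both. Chosen after the data were seen, 1453281_at in place of the lead probe set gave -1.99, -2.52 and -2.25, and the mean of the 5 others -2.08, -1.53 and -1.80. With robust moderation the lead probe set lost its call in wild-type mice (adjusted p = 0.0753). The causes were not tested.

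Over all probe sets the genotype count moved with the method, from 5 in ISP8 to 521 and from 13 in DN3 to 458 by the methods' t-test with its fold rule, and to 0 in both after Benjamini-Hochberg. Leaving out a pair gave 1 to 12 in ISP8, the lowest without the 3-week females and the highest without the 5-week pair, and 12 to 40 in DN3, the highest without the 2-week males. Without the replicate block the count was 2 in ISP8 and 1 in DN3. For the 24 probe sets, leaving out the block cost 2 calls between ISP8 and DN3, that of Pik3r2 over both genotypes (adjusted p = 0.0603) and that of Pdpk1 1415729_at in wild-type mice (adjusted p = 0.0599), and changed no other. Dim probe sets, such as those of Pik3cb, Pik3r3 and Pik3cd 1422991_at, limit what these arrays resolve.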
